A study of Mus spretus with 19 samples.

Results

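The glutathione S-transferases (Gst and Mgst), UDP-glucuronosyltransferases (Ugt) and cytosolic sulfotransferases (Sult) are the main conjugating enzymes of the second phase of detoxification. The genes were taken by name from the annotation of the arrays, kept where 3 or more arrays of any site had a probe well above background, and each shown by its brightest probe. All 46 genes with such a name passed, 22 Gst and Mgst, 14 Ugt and 10 Sult genes, out of 16346 genes and transcripts measured. The names did not depend on how the genes moved. The 4 genes given as markers of the set, Gstt2, Mgst3, Gstm4 and Gsta4, were picked with values of these samples known. Counts of changed genes at DR4 are therefore also given without them.

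The RNA came from livers of male Mus spretus, the Algerian mouse, captured at 5 places in southwest Spain. Labelled polluted were the phosphogypsum stacks (PS) and 3 points of the Domingo Rubio stream, its lower (DR1), medium (DR4) and upper course (DR6). The Santa Olalla lagoon (SOL) was labelled unpolluted. The labels give no genotype, age, dose or exposure time for any site. Each site is 1 pool of 9 mice, put on 4 arrays, or 3 for DR6. Arrays of 1 site are thus technical repeats. Every p-value below, except in the fit with pools as units, measures the spread of labelling and hybridization. Such a p-value says nothing of the spread between mice. With pools as units, the spread is that between the 4 polluted pools. Each site also had its own slide and scan, so site and slide cannot be told apart. Probes were designed for Mus musculus, and a mismatch to Mus spretus RNA can lower a signal.

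Conjugation makes a lipophilic compound water-soluble so that it can leave the cell. Glutathione S-transferases attach the tripeptide glutathione to electrophiles, and the soluble classes are named by Greek letters, while the microsomal Mgst enzymes sit in membranes. UDP-glucuronosyltransferases lie in the endoplasmic reticulum and transfer glucuronic acid to bilirubin, steroids, bile acids, drugs and plant phenols. Cytosolic sulfotransferases transfer sulfate to steroids, thyroid hormones, catecholamines and phenols. The liver is the main organ of all these reactions, and many of the genes are under the control of xenobiotic receptors, of NRF2 and of the growth hormone pattern that differs between male and female rodents.

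Values are the log2 signal of a probe relative to the 75th percentile of its array, so that 0 is the level of that percentile and a difference of 1 is 2-fold. A gene is said to have risen or fallen, or is called, where limma's moderated test gave a Benjamini-Hochberg adjusted p under 0.05 over all genes and the change was at least 2-fold. The 75th percentile ran from 99.5 to 285.2 signal units over the arrays, and the share of spots well above background from 52.0% to 61.5%. Across genes, which are not independent replicates, 2 arrays correlated at 0.981 to 0.997 within a site and at 0.954 to 0.984 between sites. Hepatocyte markers (9 of 12 listed genes measured) summed to 1228 to 1403 at PS, 1150 to 1318 at DR1, 1263 to 1354 at DR4, 1605 to 1722 at DR6 and 1335 to 1503 at SOL on the linear scale, and none was below background at any site. Of the 46 conjugation genes, 40 were well above background on every array. The others were Sult1e1, Sult5a1, Sult2b1, Sult4a1, Ugt2b34 and Ugt2b35. Outlier spots were left out, so 5 of 230 values of a gene at a site rest on fewer arrays: Gsta2 at DR1, Gstz1 at DR6 and Ugt2a3 at DR6 on 1 array each, and Gsta1 at DR1 and Ugt2b36 at SOL on 3.

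Across the 46 genes the lowest mean level lay most often at DR4. There 10 genes fell and 3 rose against SOL, where 5.10% of all genes tested were called lower and 5.43% higher. The median change of the 46 genes was -0.59 on the log2 scale, against -0.046 over all genes. It was -0.41 with quantile normalization and -0.35 with normexp. The 46 genes were brighter than all genes, with a median level of 4.03 against -0.098, so all genes are not a background matched for level. Without the 4 given genes, 7 of 42 fell and 3 rose, with a median of -0.52. At DR4, 26 of the 46 had their lowest mean of the 5 sites, against 25.8% of all genes. At SOL, 20 of the 46 had their highest mean, against 19.5% of all genes. All 4 given genes are among those 20, and Gstt2, Mgst3 and Gstm4 are among the 26. In such bulk RNA, fewer cells of a type and less RNA per cell cannot be told apart. By the adjusted p alone, 30 genes were lower and 5 higher at DR4, against a background of 31.0% lower and 23.9% higher. With the 4 given genes left out, 26 of 42 were lower and 5 higher.

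**Figure D1:**
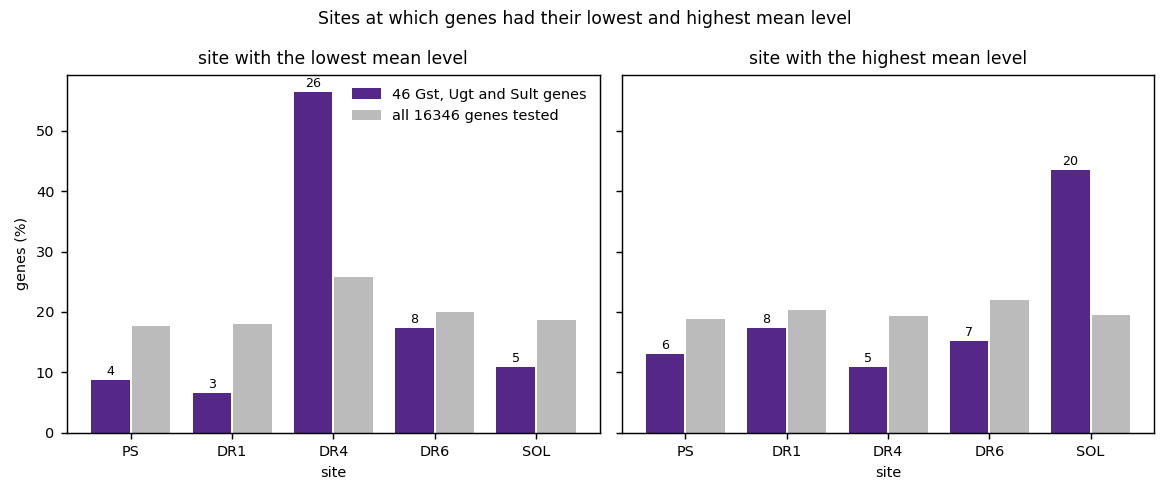
Bars give the percentage of genes whose mean level over the arrays of a site was the lowest (left) or the highest (right) of the 5 sites, for the 46 conjugation enzyme genes (purple, with their number) and for all 16346 genes tested (grey). The 46 genes had their lowest mean at DR4 in 26 cases and their highest mean at SOL in 20.

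At PS, 3 genes rose and 2 fell (2.23% and 2.18% of all genes), with a median of -0.16 against -0.0078 over all genes. At DR1, 1 rose and 2 fell (3.53% and 2.55%), with a median of -0.21 against 0.0095. At DR6, 1 rose and 3 fell (4.67% and 2.28%), with a median of -0.14 against -0.0038. Over all genes, DR6 had 763 called higher and 373 lower, and 623 and 493 when arrays were scaled to their medians instead. The counts at PS, DR1 and DR6 are of few genes and lie between 1 and 3 in each direction. Among the rises at PS, Ugt2b35 passed the detection filter through the PS arrays alone. Sult1e1, called higher at PS, DR1 and DR4, passed it through those sites alone. Sult5a1, called higher at DR4 and DR6, passed it through DR1 and DR4 alone. Together 16 of the 46 genes (34.8%) were called in at least 1 of these 4 comparisons, against 17.3% of all genes. The 16 include all 4 given genes. None was called in the same direction at all 4 sites. Of all 16346 genes only 29 fell and 87 rose at all 4, so none among 46 does not set these genes apart. The 4 comparisons share the SOL arrays, so their values are set side by side below and are not separate evidence.

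**Figure D2:**
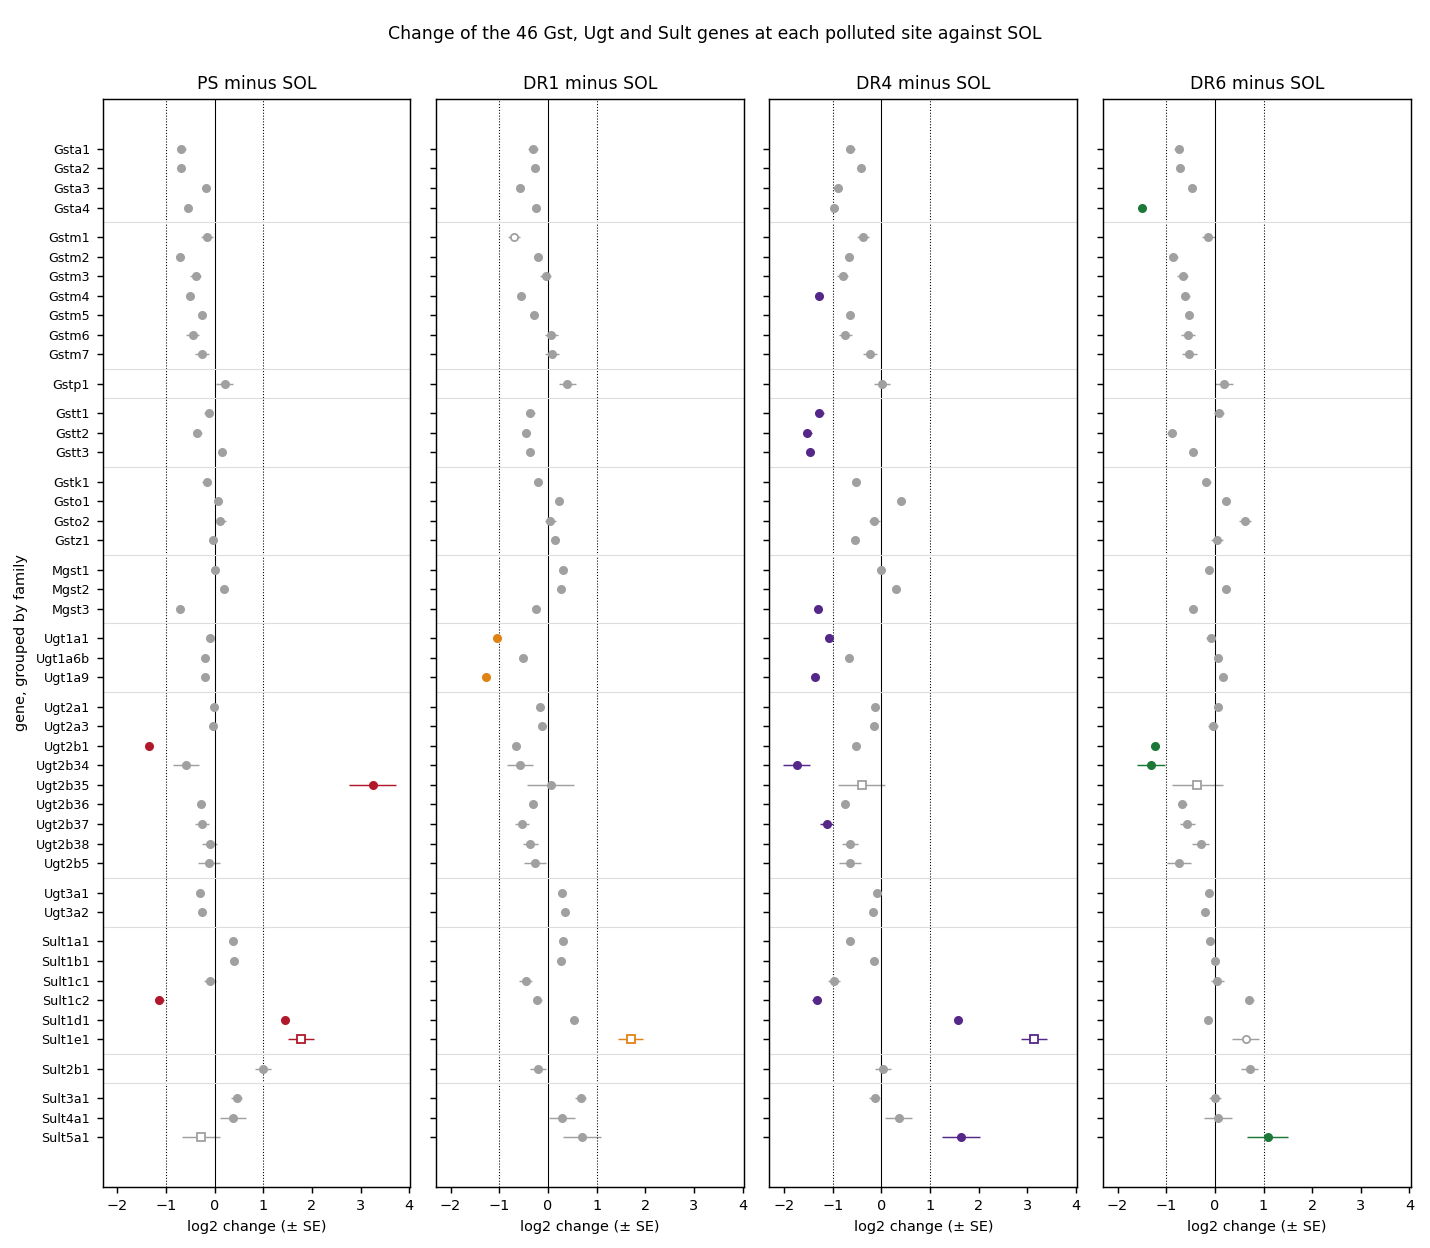
Points give the log2 change of each of the 46 genes, grouped by family, at PS, DR1, DR4 and DR6 against SOL, with the standard error of the fit as bars. Coloured points were called, grey ones were not; open squares are genes that no array of the lower site detected and open circles those below background at both sites or, for Gstm1 at DR1, saturated; solid and dotted lines mark 0 and a 2-fold change. The DR4 panel holds 10 called genes left of the dotted line and 3 right of it.

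The theta class, an old class that conjugates small halogenated compounds, fell as a whole at DR4. All 3 theta genes, Gstt1, Gstt2 and Gstt3, were called lower there and none was called at another site against SOL. Gstt3 had 7.61, 7.62, 7.50 and 7.55 on the PS arrays, 6.98, 7.08, 7.03 and 7.07 on the DR1 arrays, 6.02, 5.92, 5.90 and 5.97 on the DR4 arrays, 6.94, 7.002 and 6.95 on the DR6 arrays and 7.58, 7.48, 7.30 and 7.31 on the SOL arrays. The DR4 arrays lay below every other array, and the PS arrays overlapped the SOL arrays. The change at DR4 was -1.46 ± 0.061 (SE; 2.76-fold lower, adjusted p = 3.63e-12). Gstt2 had 1.05, 1.03, 0.997 and 1.07 at PS, 0.92, 1.13, 0.82 and 0.87 at DR1, -0.13, -0.17, -0.24 and -0.0027 at DR4, 0.52, 0.50 and 0.48 at DR6 and 1.68, 1.33, 1.20 and 1.36 at SOL. Every array of the polluted sites lay below the 4 SOL arrays, and those of DR4 lowest of all. Its changes were -0.35 ± 0.088 at PS, -0.45 ± 0.088 at DR1, -1.53 ± 0.088 at DR4 (adjusted p = 2.95e-10) and -0.89 ± 0.096 at DR6. Gstt1, known for conjugating methyl halides, had -3.27, -3.32, -2.99 and -2.97 at DR4 and -1.87, -1.84, -2.01 and -1.72 at SOL, a change of -1.28 ± 0.095 (adjusted p = 6.64e-09). At PS and DR6 its arrays overlapped those of SOL.

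The 3 theta probes lie next to each other on mouse chromosome 10 within 58.2 kb (build mm8): Gstt3 at chr10:75217937-75217996, Gstt1 at chr10:75230664-75237828 and Gstt2 at chr10:75276177-75276236, all on the minus strand. None of these probes lists the reference transcript of another gene of the set. Of the 3, the call of Gstt1 was lost when the background was corrected by normexp (-0.39), while Gstt2 (-1.12) and Gstt3 (-1.42) were still called.

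The mu class, which conjugates epoxides and quinones, is a row of 7 probes within 142.7 kb on chromosome 3. All 7 genes had values below 0 at DR4, from -1.28 to -0.24, and 6 of them passed the adjusted p, by which 31.0% of all genes were lower there. Gstm4 passed the fold limit as well. Gstm4 had 1.69, 1.66, 1.78 and 1.86 at PS, 1.75, 1.78, 1.62 and 1.65 at DR1, 0.90, 0.93, 1.06 and 1.01 at DR4, 1.52, 1.70 and 1.74 at DR6 and 2.21, 2.26, 2.07 and 2.50 at SOL. The DR4 arrays were lowest, the SOL arrays highest, and no array of a polluted site reached the SOL arrays. The changes were -0.51 ± 0.082 at PS, -0.56 ± 0.082 at DR1, -1.28 ± 0.082 at DR4 (2.43-fold lower, adjusted p = 1.05e-09) and -0.60 ± 0.089 at DR6. At PS and DR6 none of the class was called by its shown probe. A second, dim Gstm7 probe had -0.82 at PS and -1.18 at DR6, and passed both limits of a call at DR6. That probe was well above background on 0 DR6 and 4 SOL arrays. Leaving out Gstm1 for saturation, 6 of 6 values were below 0 at DR4, 5 of them past the adjusted p, and 6 of 6 at PS (median -0.42) and at DR6 (median -0.58). Gstm2 had -0.71 at PS and -0.85 at DR6. Gstm1, a major liver transferase, has no usable value at DR1, since its probe was saturated on all 4 DR1 arrays, on 3 PS, 2 DR4 and 2 SOL arrays; a second probe of the gene had -0.15 there.

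The alpha class, which also reduces organic hydroperoxides, includes Gsta4, which detoxifies 4-hydroxynonenal, a product of lipid peroxidation. Its 4 genes had values below 0 at each polluted site, with medians of -0.62 at PS, -0.29 at DR1, -0.77 at DR4 and -0.74 at DR6. By the shown probes, the adjusted p was passed by 3 of them at PS and by all 4 at DR4 and DR6. At DR1 Gsta2 rests on 1 array and Gsta1 on 3, of which 1 was saturated; Gsta3 and Gsta4 passed there. Of all genes, 16.4% were lower by that p at PS, 23.2% at DR1, 31.0% at DR4 and 23.4% at DR6. The one 2-fold change was that of Gsta4 at DR6. Gsta4 had 0.53, 0.52, 0.53 and 0.45 at PS, 0.88, 0.69, 0.95 and 0.73 at DR1, 0.093, 0.15, 0.081 and 0.023 at DR4, -0.33, -0.54 and -0.46 at DR6 and 1.04, 0.9996, 1.15 and 1.04 at SOL. The 5 sites formed separate bands, DR6 lowest and SOL highest. Its changes were -0.55 ± 0.064, -0.25 ± 0.064, -0.97 ± 0.064 and -1.501 ± 0.069 at PS, DR1, DR4 and DR6, the last 2.83-fold lower with an adjusted p of 3.67e-11. Gsta3, which also isomerizes steroids, had -0.18, -0.58, -0.90 and -0.47 at the same 4 sites. A second Gsta3 probe had -0.031, -0.36, -0.996 and -0.098, and did not pass the adjusted p at PS or DR6. Gsta1 and Gsta2 each list the other's transcript among the targets of their probe, so they are uncertain as separate values; they had -0.75 and -0.72 at DR6. Gsta4, Gsta1 and Gsta2 lie on chromosome 9 within 135.5 kb, with the Gsta4 probe at chr9:77984049-77985221.

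Of the 3 microsomal genes, Mgst3, which also acts on leukotrienes and lipid hydroperoxides, fell at DR4 while Mgst1 and Mgst2 were not called at any site. Mgst3 had 3.19, 3.22, 3.23 and 3.21 at PS, 3.55, 3.54, 3.71 and 3.84 at DR1, 2.59, 2.59, 2.60 and 2.62 at DR4, 3.46, 3.48 and 3.44 at DR6 and 3.95, 3.88, 3.91 and 3.92 at SOL. The arrays of DR4 lay below all others, and the SOL arrays lay above all others. The changes were -0.70 ± 0.057 at PS, -0.25 ± 0.057 at DR1, -1.31 ± 0.057 at DR4 (2.48-fold lower, adjusted p = 6.57e-12) and -0.46 ± 0.061 at DR6. A second Mgst3 probe, to which the files give no position, had -0.91, 0.014, -1.19 and -0.57 at the 4 sites, called at DR4 as well and on the other side of 0 at DR1. Mgst1, the liver's main microsomal transferase, had 0.014, 0.30, -0.0064 and -0.12 at PS, DR1, DR4 and DR6. Mgst2 had 0.20, 0.26, 0.29 and 0.24.

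The remaining soluble classes were not called. Gstp1, the pi-class enzyme that marks preneoplastic foci in rat liver, had 0.21, 0.40, 0.018 and 0.18 at PS, DR1, DR4 and DR6. Its SOL arrays were 6.37, 7.39, 7.34 and 7.38, and replicate 1 lay apart below the rest. Without that array the changes were -0.046, 0.15, -0.23 and -0.067, so that the sign turned at PS, DR4 and DR6. A second Gstp1 probe had 0.086, 0.044, -0.34 and -0.27. Gsto1, an omega enzyme that reduces dehydroascorbate and methylated arsenic, had 0.069, 0.22, 0.41 and 0.24, and Gsto2 had 0.12, 0.048, -0.15 and 0.62. Gstz1, which degrades maleylacetoacetate in tyrosine breakdown, had -0.033, 0.15, -0.54 and 0.045, the DR6 value from 1 array. Gstk1, the mitochondrial and peroxisomal kappa enzyme, had -0.16, -0.21, -0.52 and -0.17.

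Among the glucuronosyltransferases, 4 of 14 fell at DR4 and none rose. All 14 values of the shown probes were below 0 (median -0.65, 11 past the adjusted p). A dim further probe of Ugt2a1, described below, had 1.90 at DR4. Of all genes, 5.10% were called lower there and 31.0% were lower by the adjusted p. Ugt1a1, the enzyme that conjugates bilirubin, and Ugt1a9, whose human counterpart acts on phenols and drugs, fell at both DR1 and DR4. Ugt1a9 had 2.17, 2.19, 2.02 and 2.04 at PS, 1.0003, 0.97, 1.14 and 1.03 at DR1, 0.94, 0.93, 1.07 and 0.80 at DR4, 2.56, 2.36 and 2.48 at DR6 and 2.34, 2.27, 2.34 and 2.26 at SOL. The arrays of DR1 and DR4 lay together more than 1 below those of SOL, and the arrays of DR6 lay above SOL. The changes were -1.27 ± 0.066 at DR1 (adjusted p = 1.91e-10) and -1.37 ± 0.066 at DR4 (adjusted p = 2.52e-11), beside -0.19 ± 0.066 at PS and 0.16 ± 0.071 at DR6. Ugt1a1 had 3.33, 3.40, 3.35 and 3.23 at PS, 2.32, 2.46, 2.43 and 2.29 at DR1, 2.43, 2.35, 2.51 and 2.10 at DR4, 3.50, 3.24 and 3.29 at DR6 and 3.46, 3.36, 3.54 and 3.34 at SOL. Again DR1 and DR4 lay apart from the rest, and PS and DR6 overlapped SOL. The changes were -1.05 ± 0.086 at DR1 (2.07-fold lower, adjusted p = 4.71e-08) and -1.08 ± 0.086 at DR4 (2.11-fold lower, adjusted p = 1.54e-08). Both lie close to the fold limit: normexp gave -0.90 and -0.90, and leaving out DR4 replicate 4 gave -0.99 at DR4, none of which passed it.

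The Ugt1a genes of the mouse share their last exons and differ in the first, so the position of a probe decides what it reads. On chromosome 1 (build mm8, plus strand), the Ugt1a9 probe lies at chr1:89902627-89902686, a second Ugt1a6b probe at chr1:89938426-89938485, the Ugt1a1 probe at chr1:90043476-90043535 and the brightest Ugt1a6b probe at chr1:90050068-90050127. That last probe lies beyond the Ugt1a1 probe and also lists the Ugt1a1 transcript, so its value is not that of Ugt1a6b alone. It had -0.20, -0.52, -0.67 and 0.059 at PS, DR1, DR4 and DR6, with 1 DR1 array saturated. The second Ugt1a6b probe, which lists no other gene of the set, had -0.13, -0.058, -0.13 and 0.41. The probes of Ugt1a9 and Ugt1a1 were called at DR1 and DR4, and neither Ugt1a6b probe was.

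The Ugt2 genes, whose enzymes conjugate steroids, bile acids and drugs, lie in a row of 9 probes within 571.6 kb on chromosome 5. Ugt2b1 fell at PS and DR6. It had 1.27, 1.30, 1.32 and 1.25 at PS, 2.01, 1.96, 2.05 and 1.91 at DR1, 2.14, 2.06, 2.12 and 2.10 at DR4, 1.59, 1.19 and 1.43 at DR6 and 2.70, 2.60, 2.63 and 2.60 at SOL. All arrays of polluted sites lay below all SOL arrays, those of PS and DR6 lowest. The changes were -1.35 ± 0.067 at PS (adjusted p = 1.30e-10), -0.65 ± 0.067 at DR1, -0.53 ± 0.067 at DR4 and -1.23 ± 0.073 at DR6 (adjusted p = 9.62e-10). Ugt2b37 fell at DR4, with 4.31, 4.49, 4.58 and 4.65 at DR4 and 5.66, 5.42, 5.67 and 5.79 at SOL, a change of -1.13 ± 0.14 (adjusted p = 2.86e-06). The probes of Ugt2b36 and Ugt2b38 also list the Ugt2b37 transcript and are uncertain as separate values; they had -0.75 and -0.64 at DR4. Ugt2b5 had -0.11, -0.26, -0.65 and -0.74 at the 4 sites and was not called. Ugt2a3 had -0.03, -0.13, -0.15 and -0.035, the DR6 value from 1 array.

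A pair of dim genes of the same row were called as well. Ugt2b34 had -4.42, -4.90, -4.69 and -4.47 at DR4, -4.80, -3.88 and -3.87 at DR6 and -2.73, -2.74, -3.16 and -2.89 at SOL, and 2 DR4 and 2 DR6 arrays were well above background. Its changes were -1.74 ± 0.27 at DR4 and -1.31 ± 0.29 at DR6, and neither call was kept with normexp (-0.34 and -0.29). Ugt2b35 was seen on all 4 PS arrays, at -2.002, -2.14, -2.07 and -2.04, and on none of the DR1, DR4 and DR6 arrays. At SOL its arrays were -5.13, -6.06, -6.29 and -3.79, of which 1 was well above background. The change at PS was 3.26 ± 0.48 (adjusted p = 6.25e-05), and normexp gave 0.59, not called. A difference from SOL is thus taken against 3 arrays that did not detect the gene. The Ugt2b35 probe, at chr5:88087257-88087316, is the one probe of the row on the plus strand. The pair of Ugt3 genes, which use sugars other than glucuronic acid in humans, was not called; Ugt3a1 had -0.30, 0.28, -0.098 and -0.12.

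**Figure D3:**
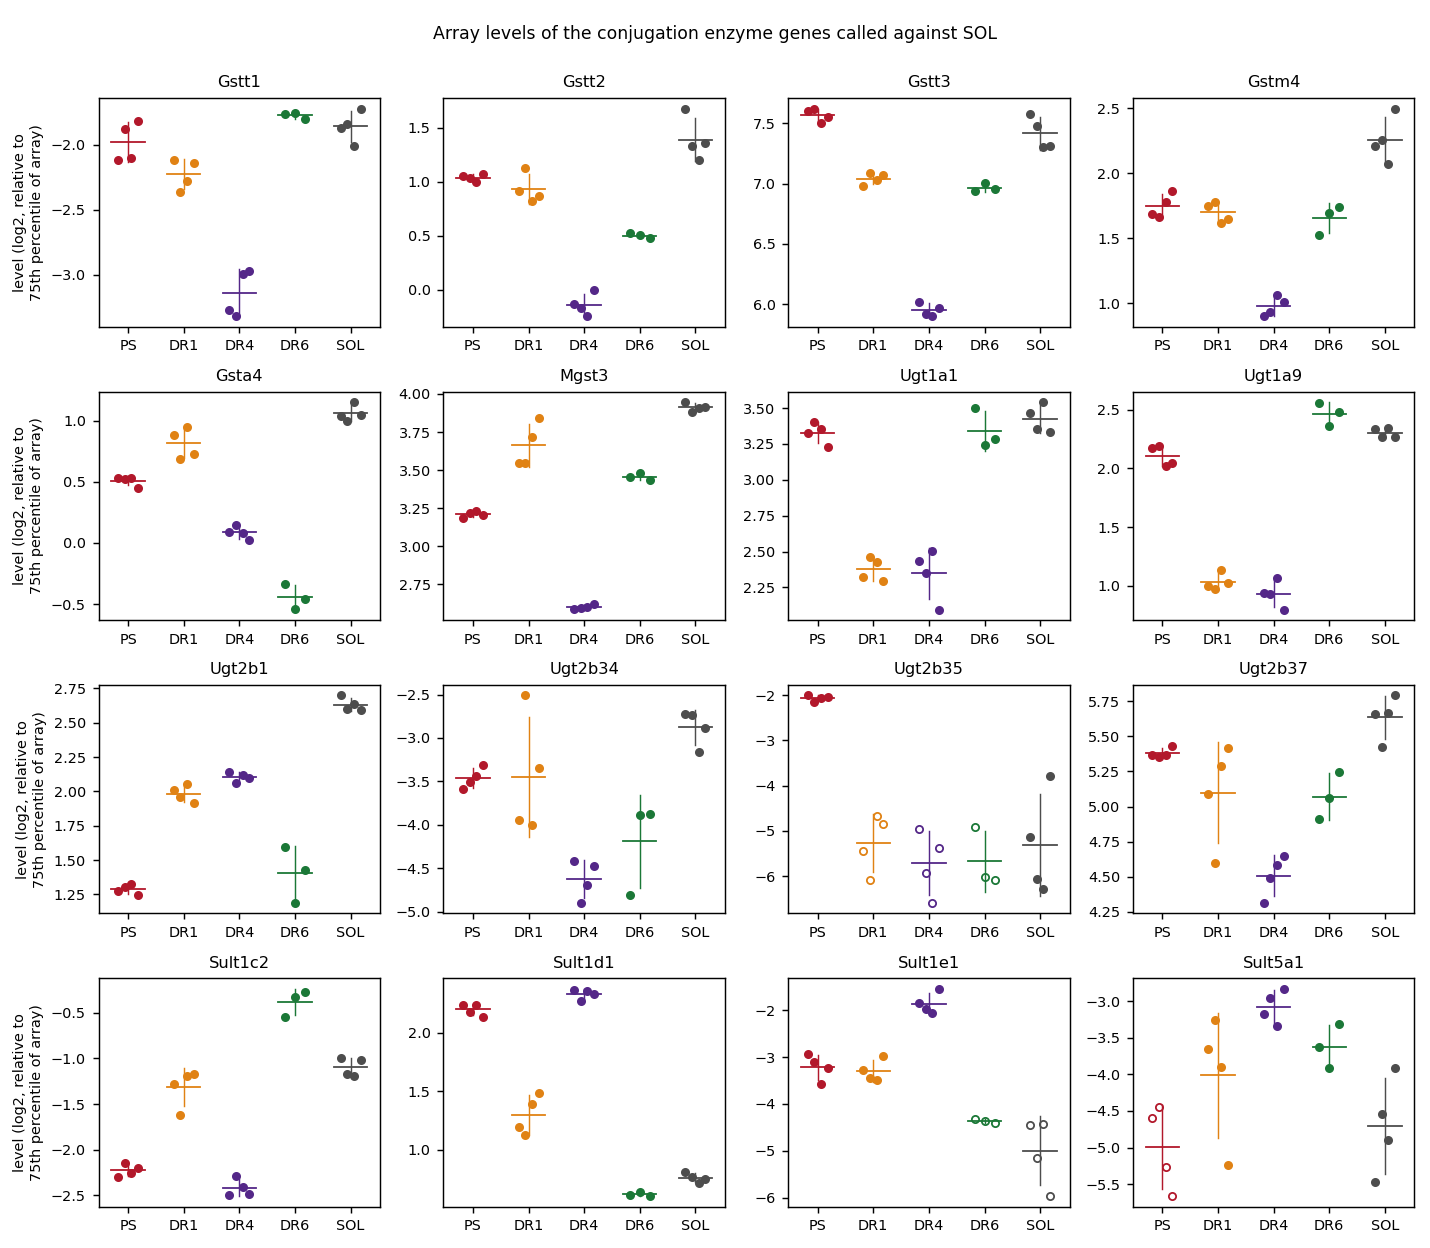
Each panel shows 1 of the 16 called genes; points are arrays (4 per site, 3 for DR6), lines the mean and SD, and the axis is the log2 level relative to the array's 75th percentile, with its own range per panel. Open points mark sites at which no array was well above background. The theta genes, Gstm4 and Mgst3 have their lowest points at DR4, Ugt1a1 and Ugt1a9 at DR1 and DR4, and Sult1d1 its highest at PS and DR4.

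By the shown probes, the sulfotransferases held every rise called against SOL except that of Ugt2b35. Of those that rose, Sult1e1 and Sult5a1 did not pass the detection filter through SOL, so their rises are not independent of it. Only Sult1d1 was well above background on every array. Sult1d1, which sulfates catecholamines and other amines in rodents, rose at PS and DR4. It had 2.24, 2.18, 2.24 and 2.14 at PS, 1.19, 1.12, 1.39 and 1.49 at DR1, 2.36, 2.27, 2.36 and 2.33 at DR4, 0.61, 0.63 and 0.60 at DR6 and 0.81, 0.77, 0.71 and 0.75 at SOL. The PS and DR4 arrays lay together at the top, DR1 between, and DR6 just below SOL. The changes were 1.44 ± 0.067 at PS (2.71-fold higher, adjusted p = 4.42e-11), 0.54 ± 0.067 at DR1, 1.57 ± 0.067 at DR4 (2.97-fold higher, adjusted p = 4.82e-12) and -0.14 ± 0.072 at DR6. Its neighbour Sult1e1, the estrogen sulfotransferase, was well above background on all arrays of PS, DR1 and DR4 and on none of DR6 or SOL. The levels were -2.95, -3.11, -3.58 and -3.24 at PS, -3.28, -3.44, -3.48 and -2.99 at DR1, -1.84, -1.98, -2.07 and -1.55 at DR4, -4.32, -4.37 and -4.42 at DR6 and -4.44, -5.15, -4.43 and -5.97 at SOL. Against SOL, where only a bound exists, it was at least 1.94-fold higher at PS, at least 1.84-fold at DR1 and at least 4.98-fold at DR4 (adjusted p = 5.24e-05, 4.72e-05 and 2.43e-08 in limma). A bound sets the bright site's mean against, on each array of the dim site, the higher of the probe's own signal and the lowest signal well above background. With normexp, which shrinks dim signals, the same changes were 0.26, 0.19 and 0.58 and none was called.

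Sult1b1, a thyroid hormone and phenol sulfotransferase, lies beside these genes, the 3 probes falling within 61.2 kb on chromosome 5, next to the Ugt2 row. It had 0.39, 0.26, -0.15 and 0.0034 at PS, DR1, DR4 and DR6 and was not called. A second Sult1b1 probe, well above background on every array, had 0.48, 0.71, -0.45 and -0.24. These passed the adjusted p but not the fold limit, and the sign differed at DR6. Sult1a1, the phenol sulfotransferase, had 0.39, 0.30, -0.65 and -0.098, not called. Sult5a1 rose at DR4, where its arrays were -3.17, -2.96, -3.34 and -2.83, against -5.47, -4.54, -4.90 and -3.92 at SOL, a change of 1.63 ± 0.39 (adjusted p = 0.00182). It was called at DR6 too, at 1.09 ± 0.42 (adjusted p = 0.0447), with arrays of -3.63, -3.92 and -3.32 that overlapped those of SOL. The gene was well above background on 0 PS, 3 DR1, 4 DR4, 2 DR6 and 1 SOL arrays. With normexp the changes were 0.29 at DR4 and 0.13 at DR6, and neither was called. The DR6 call was lost without PS replicate 3, DR1 replicate 3, any of the DR4 or DR6 replicates, or SOL replicate 1, 2 or 3, with changes from 0.83 to 1.23. Sult2b1, a cholesterol sulfotransferase, had 0.99, -0.21, 0.038 and 0.72, Sult3a1 had 0.45, 0.67, -0.14 and -0.0037 and Sult4a1, a brain form with no settled substrate, had 0.38, 0.29, 0.35 and 0.06; none was called.

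Sult1c2 fell at PS and DR4 and was the one sulfotransferase to do so. It had -2.30, -2.15, -2.26 and -2.20 at PS, -1.28, -1.62, -1.19 and -1.17 at DR1, -2.49, -2.29, -2.41 and -2.48 at DR4, -0.55, -0.32 and -0.28 at DR6 and -0.995, -1.17, -1.19 and -1.02 at SOL. The arrays of PS and DR4 lay lowest, those of DR1 overlapped SOL, and those of DR6 lay above SOL. The changes were -1.13 ± 0.093 at PS (adjusted p = 7.14e-08), -0.22 ± 0.093 at DR1, -1.33 ± 0.093 at DR4 (adjusted p = 3.20e-09) and 0.71 ± 0.10 at DR6. With normexp they were -0.52 at PS and -0.54 at DR4, and neither was called. Its chromosome 17 neighbour Sult1c1 had -0.089, -0.46, -0.97 and 0.053, not called.

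Transcripts of other tissues also differed between the pools. Exocrine pancreas genes (12 of 16 listed genes measured, none below background at any site) summed to 274 to 275 at PS, 520 to 656 at DR1, 103 to 147 at DR4, 1343 to 1374 at DR6 and 1119 to 1215 at SOL on the linear scale, an order of sites that Sult1c2 shares. Of these 12 genes, 12 fell at PS, 3 at DR1, 12 at DR4 and 0 at DR6. Kidney genes (5 of 8 measured) summed to 1.68 to 1.79 at PS, 0.851 to 1.09 at DR1, 0.756 to 0.918 at DR4, 1.35 to 1.43 at DR6 and 0.984 to 1.79 at SOL. At PS all 5 were detected and 3 rose, while 2 had values below 0, 1 of them past the adjusted p. At SOL Kap and Slc34a1 were not above background on any array. Kap, the kidney androgen-regulated protein, was at least 10.5-fold higher at PS. These rises stand beside the PS values of Ugt2b35 and Sult1d1. Sult1d1 was higher still at DR4, at 2.27 to 2.36 against 2.14 to 2.24 at PS, while the kidney sum had its lowest mean at DR4. Erythroid genes (5 of 9 measured) summed to 757 to 861 at PS, 379 to 417 at DR1, 306 to 308 at DR4, 359 to 375 at DR6 and 754 to 781 at SOL. Of these, 0 fell at PS, 1 at DR1, 5 at DR4 and 4 at DR6. Intestine genes (7 of 12 measured) summed to 39.1 to 44.0 at PS, 43.4 to 55.6 at DR1, 20.02 to 23.4 at DR4, 31.3 to 35.5 at DR6 and 55.2 to 68.1 at SOL. Cdx2 was below background except at DR6. Defa1 was so at PS and DR4, and Defcr6 at PS, DR1 and DR4. Of the intestine genes, 3 fell at PS, 2 at DR1 and 4 at DR4, and 3 rose at DR6. Kupffer cell and macrophage genes (9 of 11 measured, none below background at any site) summed to 113 to 119 at PS, 92.9 to 111 at DR1, 57.0 to 66.9 at DR4, 56.5 to 63.4 at DR6 and 122.6 to 146 at SOL. Of these, 3 fell at DR4, 1 at DR1 and 1 at DR6, and 9 of 9 values were below 0 at DR4. Lymphocyte genes (7 of 9 measured, none below background) summed to 8.49 to 9.53 at PS, 6.17 to 7.86 at DR1, 4.09 to 4.66 at DR4, 3.61 to 4.32 at DR6 and 3.71 to 4.33 at SOL, with 2 higher at PS, 2 at DR1 and 1 at DR6. Over all genes, 2.23% rose and 2.18% fell at PS, and 3.53% and 2.55% at DR1. The shares were 5.43% and 5.10% at DR4 and 4.67% and 2.28% at DR6. The part of the transcripts of other tissues and cell types in the results was not tested.

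**Figure D4:**
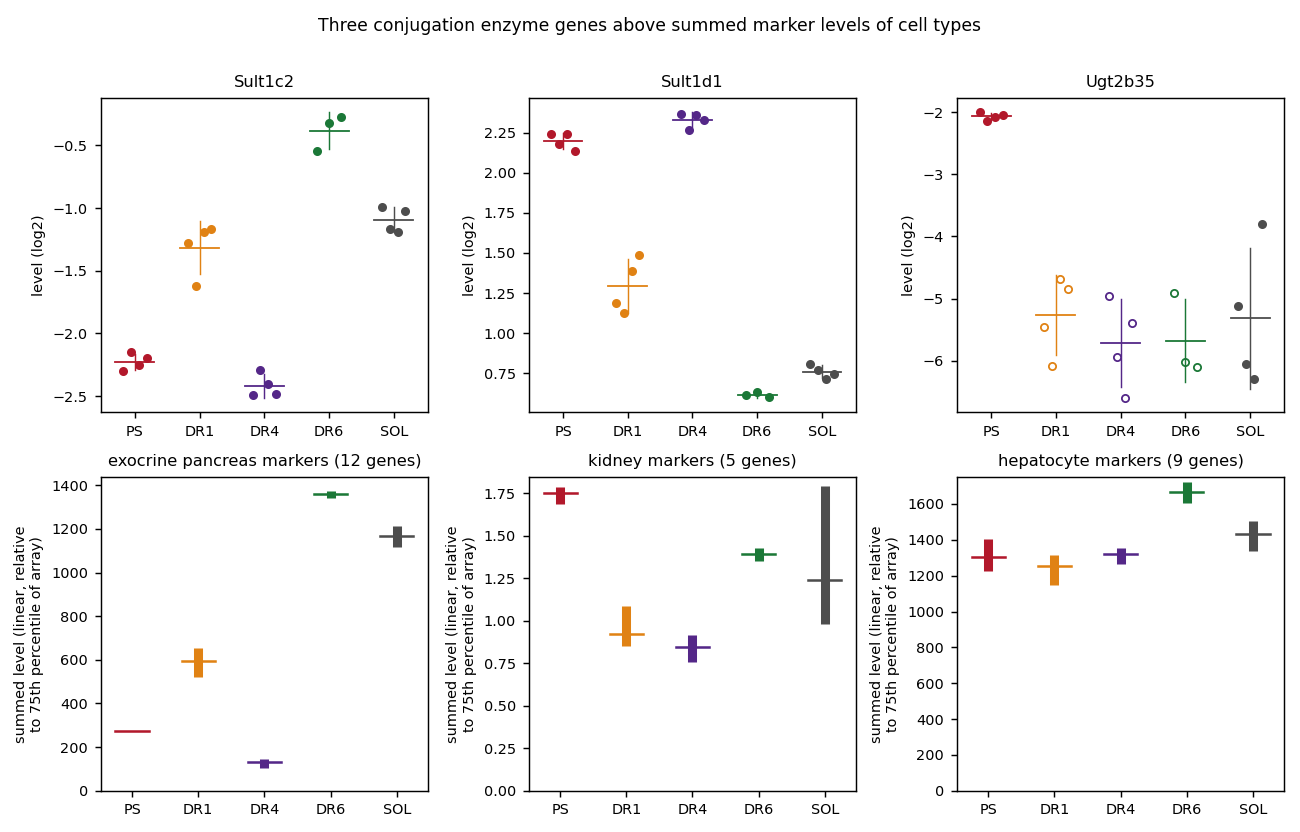
The upper row shows the log2 levels of Sult1c2, Sult1d1 and Ugt2b35 on each array with mean and SD (open points: no array of the site well above background). The lower row shows the range over arrays (thick bar) and the mean (thin line) of the summed linear levels of exocrine pancreas, kidney and hepatocyte markers at each site. Sult1c2 and the pancreas markers are both highest at DR6 and lowest at DR4.

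The 3 courses of the stream were also set against each other, in comparisons that share arrays. Against DR6, DR4 had 5 genes lower and 2 higher (3.78% and 2.39% of all genes): Sult1c2 at -2.04 ± 0.10, Ugt1a9 at -1.53 ± 0.071, Gstt1 at -1.36 ± 0.10, Sult1c1 at -1.02 ± 0.14 and Gstt3 at -1.01 ± 0.066 were lower, and Sult1d1 at 1.71 ± 0.072 and Sult1e1, at least 4.79-fold, were higher. For Gstt3 this call was lost without DR4 replicate 2 (-0.9996), DR4 replicate 3 (-0.995) or DR6 replicate 2 (-0.99). That of Sult1c1 was lost without DR4 replicate 1 (-0.98) or DR6 replicate 3 (-0.95). Against DR4, DR1 had 5 genes higher and 2 lower (3.05% and 2.10%). Those higher at DR1 were Ugt2b34 at 1.17 ± 0.27, Sult1c2 at 1.10 ± 0.093, Gstt3 at 1.09 ± 0.061, Gstt2 at 1.07 ± 0.088 and Mgst3 at 1.06 ± 0.057, and those lower were Sult1e1 at -1.44 ± 0.26 and Sult1d1 at -1.03 ± 0.067. The Ugt2b34 call was lost without DR1 replicate 2 (0.86), and that of Sult1d1 without DR1 replicate 1 (-0.998) or 2 (-0.98). Against DR6, DR1 had 2 genes higher and 1 lower (3.26% and 4.24%): Gsta4 at 1.26 ± 0.069, Sult1e1, at least 1.77-fold, and Ugt1a9 at -1.43 ± 0.071. The Sult1e1 call was lost without DR1 replicate 4 (0.97). All these are calls of the shown probes. Further probes of Sult1b1 (1.17), Ugt3a2 (1.04) and Mgst3 (1.20) passed both limits for DR1 against DR4. That of Ugt3a2 (-1.03) did so for DR4 against DR6. Dim further probes, not well above background on any DR6 array, passed them against DR6. These were Gstm7 at DR1 (1.12) and Ugt2a1 at DR1 (2.21) and DR4 (2.43). Over all genes, arrays scaled to their medians had 673 higher and 542 lower for DR1 against DR6, in place of 533 and 693, and 492 and 507 for DR4 against DR6, in place of 390 and 617.

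A further probe was kept for 10 of the 46 genes. Over 11 such probes and 4 comparisons, 34 of 44 pairs of changes lay within 0.5 of each other. The largest difference, 2.04, was in Ugt2a1, an olfactory form. A dim further probe of it had 1.33, 1.69, 1.90 and -0.52 at PS, DR1, DR4 and DR6, while the shown probe had -0.011, -0.17, -0.14 and 0.072. That further probe passed both limits of a call at PS, DR1 and DR4. It was well above background on 1 PS, 4 DR1, 4 DR4, 0 DR6 and 0 SOL arrays.

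**Figure D5:**
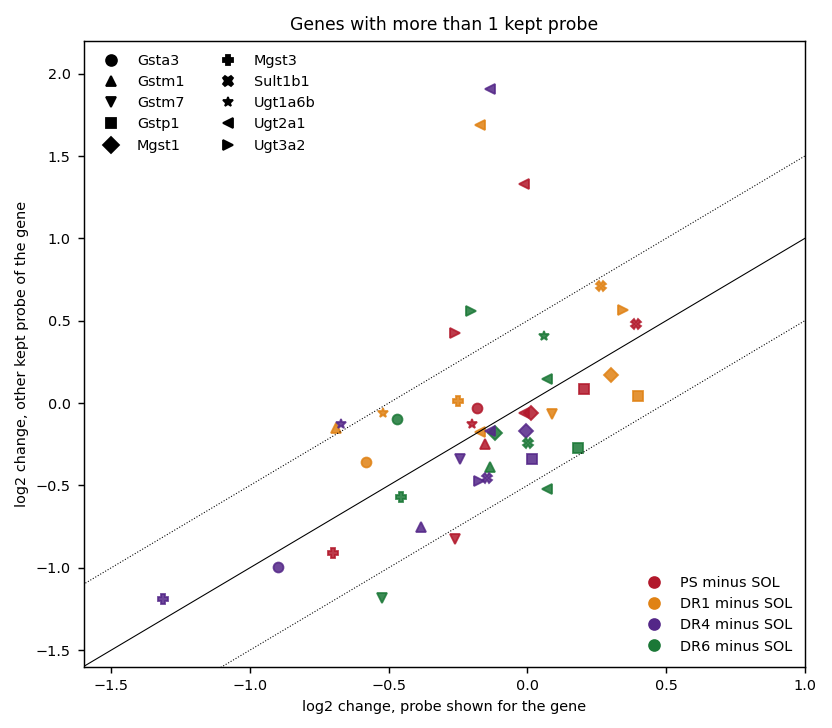
For the 10 genes with more than 1 kept probe, the log2 change of the shown probe (x axis) is set against that of another probe of the gene (y axis), with colour for the site and symbol for the gene; the solid line marks equal changes and the dotted lines a difference of 0.5. Of 44 points, 34 lie between the dotted lines, and those farthest off are the dim Ugt2a1 probe.

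Genes that supply, complement and clear the conjugates were taken from lists. For comparison, 2.23% of all genes rose and 2.18% fell at PS, and 3.53% and 2.55% at DR1. The shares were 5.43% and 5.10% at DR4 and 4.67% and 2.28% at DR6. In lists this short, a count of 1 gene cannot be told from such shares. Of 12 measured genes of glutathione supply and recycling, 1 rose at each polluted site, and it was Cth, the cystathionine gamma-lyase that makes cysteine, at 1.15 ± 0.058, 1.56 ± 0.058, 1.75 ± 0.058 and 1.02 ± 0.062 at PS, DR1, DR4 and DR6. Without DR6 replicate 2 its DR6 value was 0.99, below the fold limit. Ggt1, which starts the breakdown of glutathione, fell at DR1 (-1.11 ± 0.091). The glutathione synthesis genes Gclc and Gclm were not called, with -0.17, -0.066, 0.16 and 0.50 and -0.16, 0.13, 0.083 and -0.21 at the 4 sites. The median of the list was 0.084 at PS and -0.25 at DR4. Of 7 genes of UDP-glucuronate supply, Pgm1, a phosphoglucomutase, rose at DR4 (1.49 ± 0.14) and DR6 (2.27 ± 0.15). Of 7 genes of sulfate donor supply, none was called at PS, DR1, DR4 or DR6, and the medians were -0.08, -0.072, -0.26 and -0.10.

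Among 20 measured genes of other conjugating enzymes, 2 rose and 2 fell at DR1, 2 and 2 at DR4, 1 and 0 at DR6, and 0 and 0 at PS. Over all genes, 3.53% rose and 2.55% fell at DR1, and 5.43% and 5.10% at DR4. At DR6 4.67% rose, so 1 of 20 lies near that share. Nnmt, which methylates nicotinamide, rose at DR4 (1.54 ± 0.072) and DR6 (1.04 ± 0.077), the DR6 call lost without DR6 replicate 1 (0.997) or SOL replicate 3 (0.97). Acsm2, an acyl-CoA synthetase that prepares benzoate for glycine conjugation, rose at DR1 (1.55 ± 0.064) and DR4 (1.57 ± 0.064), and its relative Acsm3 at DR1 (1.11 ± 0.13). Hnmt, which methylates histamine, fell at DR1 (-1.16 ± 0.061) and DR4 (-1.495 ± 0.061), Inmt at DR1 (-1.37 ± 0.11) and Bphl, a serine hydrolase, at DR4 (-1.51 ± 0.31). Of 8 deconjugating enzymes, Dpep1, a dipeptidase of the glutathione conjugate pathway, rose at PS, DR4 and DR6 (1.07 ± 0.15, 1.29 ± 0.15 and 1.19 ± 0.16), the PS call lost without SOL replicate 3 (0.96). Arsg, a lysosomal sulfatase, rose at DR1 and DR6 (1.27 ± 0.058 and 1.77 ± 0.062). Acy1, the aminoacylase that removes acetyl groups from acetylated amino acids, fell at DR4 (-1.08 ± 0.10).

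Over all genes, 2.18% fell at PS, 2.55% at DR1, 5.10% at DR4 and 2.28% at DR6, and 4.67% rose at DR6. Of 16 transporters of conjugates and bile salts, 3 fell at PS, 2 at DR1, 1 at DR4 and 1 at DR6, and 1 rose, at DR6. Those at PS were uptake carriers of organic anions, Slco1a1 (-1.54 ± 0.074), Slc22a7 (-1.26 ± 0.056) and Slco1a4 (-1.22 ± 0.11). Those at DR1 were the efflux pumps Abcc6 (-1.14 ± 0.11) and Abcb1b (-1.09 ± 0.068). The drug efflux pump Abcb1a fell at DR4 (-1.62 ± 0.17) and DR6 (-1.33 ± 0.19), and the basolateral conjugate exporter Abcc4 rose at DR6 (1.32 ± 0.17). Of 24 regulators, 3 rose and 1 fell at DR4, 2 rose at DR6, 1 fell at PS and none was called at DR1. The shares of all genes were 5.43% higher and 5.10% lower at DR4, and 4.67% higher at DR6. At DR4 the receptor genes moved in opposite directions: Ahr, the receptor of dioxins and polycyclic aromatics, rose (1.64 ± 0.12) and Nr1i2, the pregnane X receptor, fell (-1.38 ± 0.10), as Foxa1 (1.39 ± 0.16) and Maff (1.32 ± 0.098) rose. At DR6 the small Maf genes Maff (2.14 ± 0.098) and Mafk (1.05 ± 0.13) rose, and at PS the repressor gene Bcl6 fell (-1.25 ± 0.093). The target genes of such receptors did not form 1 pattern. Cyp1a1, a target of the Ahr protein, had 0.73, 1.28, 1.13 and 2.05 at PS, DR1, DR4 and DR6, called at the 3 stream sites. Cyp2b10, a target of the constitutive androstane receptor, had 0.11, 0.27, 1.85 and -1.15, called higher at DR4 and lower at DR6. Nqo1, a target of NRF2 and of the Ahr protein, had 0.27, 0.89, 0.17 and -0.41 and was not called.

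Genes known to differ between male and female mouse liver also differed between the sites. For comparison, 2.23% of all genes rose and 2.18% fell at PS, and 3.53% and 2.55% at DR1. The shares were 5.43% and 5.10% at DR4 and 4.67% and 2.28% at DR6. Of 15 measured male-biased genes, 3 rose and 2 fell at PS, 6 and 1 at DR1, 6 and 1 at DR4, and 4 and 1 at DR6, with medians of 0.30, 0.36, 0.38 and 0.37. Mup5, a major urinary protein, had 2.64, 3.23, 3.28 and 2.03, called at each. Of 17 female-biased genes, none rose, and 4, 5, 5 and 3 fell at PS, DR1, DR4 and DR6. The list includes Sult3a1, itself among the 46 conjugation genes, which had 0.45, 0.67, -0.14 and -0.0037 at these sites. Hao3 had -2.19, -1.74, -1.73 and -1.36, called at each. These values stand beside those of the conjugation genes at the same sites, and their part in them was not tested.

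When the 5 pools rather than the arrays were taken as units, and the 4 polluted pools set against the SOL pool in limma, 0 of 16346 genes and 0 of the 46 were called. By an unadjusted p under 0.05, limma had 665 genes (4.07%) and 1 of the 46, which was Ugt2b1. Its 4 polluted pools averaged 1.69 against 2.63 at SOL, a difference of -0.94 ± 0.39 (SE), lower at 4 of 4 sites. The adjusted p of Ugt2b1 in limma was 0.998. The lone SOL pool was taken to vary like the others in that fit.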

How the data were processed

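Cy3-labelled RNA of the liver pools was read on 19 Agilent arrays of 1 colour, with 45018 spots each. Per the submitters' processing notes the authors extracted them with Agilent Feature Extraction 9.5.3.1. The deposited processed signal is a linear intensity per spot, background-subtracted and spatially detrended per the file headers and not scaled between arrays. The deposited mean and local background intensity columns are raw, and the deposited flags (well above background, saturated, outlier, control) are 0 or 1. The authors' table of the series holds the same intensity, rounded (largest relative difference 0.497%). An older design was used for DR1, which names 5.84% of gene spots otherwise, so names and mm8 positions came from the SOL files. No genome or probe sequence was used, and gene symbols are those of the files.

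The 1639 control spots were left out, outlier spots set missing, log2 signals reduced by each array's 75th percentile, spots averaged per probe, and the 23458 probes kept that 3 or more arrays of any site had well above background. With limma 3.58.1 (R 4.3.3), a mean per site was fitted for each gene, with two-sided tests. Of 7 comparisons, 4 set a polluted site against SOL and 3 set stream sites against each other, and a further fit used the 5 pools as units. Alternatives were median and quantile scaling, normexp background (offset 50), other filters, all probes, the deposited table, a replicate block and leaving out each array. Tested on simulated data for DR4 against SOL over 16003 genes, the fit recovered 93% of 100 genes changed by 1.5 and 96% of 100 changed by 2 on the log2 scale, with 2 false calls. The simulation held only the spread between arrays of 1 site. It had no differences between pools or slides, so its false calls say nothing of those. The precision is limited by the number of arrays, and dim genes by background. The text names the 4 given genes, every gene of the set called against SOL, the brightest of each family, and of other lists at most 4 called genes per comparison by size. Members, lists and rules were chosen with earlier results of these data known.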

Additional observations from a re-analysis of the deposited data

Results flagged for a closer look

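Within groups of 4 arrays, 12 values of the 46 genes stood apart from the other 3 arrays of their site by Dixon's criterion, of 181 groups tested (6.63%), where chance flags about 1 in 20. Gsta3 in DR4 replicate 4 was 6.61, with the others at 6.37 to 6.41. Gsta4 in PS replicate 4 was 0.45, with the others at 0.52 to 0.53. Gstm1 in DR4 replicate 3 was 8.24, with the others at 8.43 to 8.45, on a probe that was saturated on 2 DR4 arrays. Gstm2 in DR4 replicate 4 was 6.57, with the others at 6.71 to 6.73. Gsto1 in PS replicate 4 was 6.01, with the others at 6.10 to 6.12. Gsto2 in DR4 replicate 4 was -1.36, with the others at -1.71 to -1.66. Gstp1 in SOL replicate 1 was 6.37, with the others at 7.34 to 7.39. Gstz1 in DR4 replicate 4 was 4.59, with the others at 4.79 to 4.80. Sult1a1 in DR1 replicate 2 was 7.60, with the others at 7.49 to 7.50. Sult3a1 in DR4 replicate 1 was 5.61, with the others at 5.76 to 5.79. Ugt2a1 in DR1 replicate 3 was 3.65, with the others at 3.79 to 3.81. Ugt3a2 in PS replicate 4 was 3.18, with the others at 3.33 to 3.36. Of the 12, 4 lie on DR4 replicate 4 and 3 on PS replicate 4. Gsta4 is the one of these 12 genes that was called against SOL, and its call is at DR6.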

How the results depend on the processing

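With normexp background correction and quantile normalization, the 46 genes had 2 calls at PS, 1 at DR1, 7 at DR4 and 2 at DR6 against SOL, 1 for DR1 against DR6, 3 for DR4 against DR6 and 1 for DR1 against DR4, in place of 5, 3, 13, 4, 3, 7 and 7, and all genes had 196, 245, 596, 277, 300, 241 and 193 calls. Of the 42 calls of the 46 genes over the 7 comparisons, 17 were kept and 25 lost, none with a changed sign. Its medians of the 46 genes were -0.085 at PS, -0.088 at DR1, -0.35 at DR4, 0.15 for DR1 against DR6, 0.011 for DR4 against DR6 and 0.18 for DR1 against DR4. With probes well above background on every array, which leaves 40 of the genes, there were 3 calls at PS and 2 at DR6, a median of -0.64 at DR4, and over all genes 390, 551, 661, 693, 603 and 446 calls at PS, DR1 and DR6 and for DR1 against DR6, DR4 against DR6 and DR1 against DR4. Median scaling gave medians of -0.076 at PS, -0.23 at DR6, 0.32 for DR1 against DR6 and -0.062 for DR4 against DR6, and lost 3 of the 42 calls. Quantile normalization gave -0.11 at PS, -0.41 at DR4, -0.0010 for DR4 against DR6 and 0.28 for DR1 against DR4, and lost 5. The mean of all kept probes gave -0.11 at PS, -0.55 at DR4 and 0.27 for DR1 against DR6. All 42 calls were kept with that mean and with the deposited table, and without a filter on dim probes 1 was lost, Sult5a1 at DR6. The replicate block gave a median of -0.20 for DR4 against DR6 and lost 1 call, that of Sult5a1 at DR6 (1.01); it changed no other call. Same-numbered arrays of different sites correlated in their deviations from -0.16 to 0.48, with 16 of 36 pairs above 0.1, against 14 of 108 pairs with unlike numbers, and 11 of 19 arrays correlated best with an array of their own number. The replicate number was also the array's position on its slide. The main fit did not pair arrays by number, and the replicate block is the fit that did. The part of slide position in these correlations was not tested. Leaving out 1 array moved the median at DR4 between -0.61 and -0.55 and that for DR4 against DR6 between -0.20 and -0.14, and 35 of the 42 calls were kept whichever array was left out. The second probes, an alternative added after the data were seen, had 0.014 for Mgst3 at DR1, -0.062 for Mgst1 at PS and -0.34 and -0.27 for Gstp1 at DR4 and DR6. Some genes outside the naming rule turned sign too, such as Gstm3 at DR1 (0.14) and Ugt2a3 at DR4 (0.12) with normexp, and are not listed. Among the genes named by that rule, other changes that took the opposite sign were all of values not called. With normexp they were Gsta1 at DR1 (0.019), Gstt1 at DR6 (-0.027), Mgst1 at DR4 (0.24), Sult2b1 at DR4 (-0.030), Sult3a1 at DR4 (0.12) and DR6 (0.029), Sult5a1 at PS (0.019), Ugt1a6b at DR6 (-0.058), Ugt2b35 at DR1 (-0.018) and Ugt3a1 at DR4 (0.10). With quantile normalization they were Gstm1 at PS (0.043), Mgst1 at DR4 (0.27) and Ugt1a6b at DR6 (-0.030). With median scaling they were Gstt1 (-0.0015) and Ugt1a6b (-0.029) at DR6 and Mgst1 at DR4 (0.0025). With the mean of all kept probes they were Gstp1 at DR4 (-0.16) and DR6 (-0.045) and Mgst1 at PS (-0.024), and with the replicate block Sult3a1 at DR6 (0.017). Leaving out 1 array ran Gstp1 between -0.046 and 0.29 at PS, -0.23 and 0.11 at DR4 and -0.067 and 0.27 at DR6, Mgst1 between -0.00033 and 0.037 at PS and -0.030 and 0.017 at DR4, Sult2b1 between -0.15 and 0.15 at DR4, Sult3a1 between -0.15 and 0.14 at DR6, and Ugt2b35 between -0.27 and 0.56 at DR1, -0.73 and 0.11 at DR4 and -0.75 and 0.15 at DR6. In the contrast of polluted sites against SOL, arrays as units called 686 genes, 2 of them among the 46, and pools 0. The median at DR4 was below 0 in each alternative. The cause of the other differences was not tested. Dim genes are limited by background. With normexp all calls against SOL of Sult1e1, Sult5a1, Ugt2b34, Ugt2b35, Sult1c2, Gstt1 and Ugt1a1 were lost.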
